A study of Caenorhabditis elegans with 2 samples.

Results

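A set of 10 transcription factor genes known from ageing and stress biology in Caenorhabditis elegans was examined across all genes of a deposited expression table: skn-1, hsf-1, pqm-1, hlh-30, pha-4, atfs-1, hif-1, nhr-49, nhr-80 and mdl-1. They form a list of gene names, drawn up with earlier results of these data known. Of the 10 genes, 9 had a row under their exact name, and hif-1 had 2 rows that add coordinates to the name, so that 10 of 10 genes were found, beside 19874 genes analysed in all. Total RNA was sequenced from whole worms of mixed stages, kept at 20 °C on Escherichia coli OP50. Both samples, replicates 1 and 2, came from the double mutant strain daf-2(e1370);daf-12(m20). The first allele reduces the insulin/IGF-like receptor, and the second lies in the gene of DAF-12, a steroid-regulated receptor that acts in entry into the dauer larva. Both libraries carry both alleles, and wild-type worms and single mutants were not analysed here, so each value is a level in this strain, and whether the mutations change it cannot be seen from these data. Whether the replicates were grown separately is not stated in the labels, so the spread between them may be technical.

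The factors stand at the end of different stress and nutrient pathways. SKN-1 (the Nrf-family factor), HSF-1, HIF-1 and ATFS-1 are best known for answering oxidative and xenobiotic stress, heat, low oxygen and mitochondrial stress, mostly through control of the protein: its degradation, its location or its release from an inhibitor. HLH-30, PHA-4, NHR-49 and NHR-80 are known for tying autophagy and fat metabolism to lifespan, while PQM-1 and MDL-1 are known from work on the DAF-16 branch of insulin signalling. The amount of transcript therefore does not show how active a factor is.

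Expression was deposited as RPKM, reads scaled to gene length and library size, which allows levels of different genes to be set side by side. In whole-worm RNA a low value cannot tell fewer cells that use a gene from less RNA per cell. Depth, read from the steps between low RPKM values, came to about 10500000 and 14700000 reads for replicates 1 and 2. Read numbers below are estimates from that depth and the coding length of each gene, and intervals are exact Poisson 95% intervals that cover counting error only. Markers of intestine, body wall muscle, neurons, germ line, adult yolk and hypodermis were all at a mean of at least 1 RPKM, as were 5 of 6 markers of pharyngeal muscle and 2 of 3 of sperm, with ceh-22 and spe-9 below that level. The summed level of pharyngeal muscle markers, 57.9 and 48.2 RPKM in replicates 1 and 2, was the lowest of the 8 marker groups.

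In the mean of the replicates all 10 factors were above the median gene, pha-4 only just, and they covered a wide range of levels. Their median was 46.2 RPKM in the mean of the replicates, with 47.4 and 45.1 RPKM in replicates 1 and 2, while the median over all genes was 6.17 RPKM. pha-4, at a mean of 6.40 RPKM, was not separated from that median. Its intervals, 4.96 to 7.45 RPKM in replicate 1 and 5.66 to 7.85 RPKM in replicate 2, both include it. A mean of at least 10 RPKM was reached by 8 of the 10, beside 42% of all genes. The highest factor stood 27.3 times above the lowest in replicate 1 and 22.3 times in replicate 2. The order of the 10 was the same in both replicates.

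**Figure D1:**
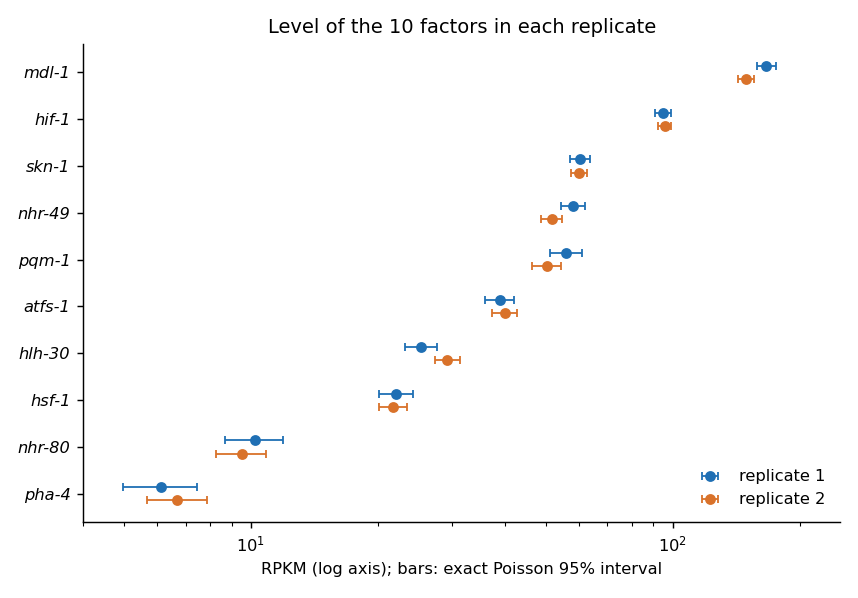
Level of each factor in replicate 1 and replicate 2 on a logarithmic RPKM axis, with exact Poisson 95% intervals as bars. mdl-1 stands highest at 167 and 149 RPKM and pha-4 lowest at 6.11 and 6.69 RPKM, and the bars of the replicates are apart for mdl-1 alone.

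mdl-1, the gene of a Mad-like repressor with a basic helix-loop-helix (bHLH) domain, was the most abundant of the 10. It lies on chromosome X from 6742351 to 6743899 on the plus strand of WBcel235 and has 1 annotated transcript with 846 bp of coding sequence. Its level was 167 and 149 RPKM in replicates 1 and 2, 158 ± 12.3 RPKM in the mean (SD, n = 2), higher than 94.9% of all genes. About 1487 and 1851 reads gave intervals of 158 to 175 RPKM and 143 to 156 RPKM, which do not overlap.

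hif-1, the hypoxia-inducible factor gene, followed at 94.99 and 95.7 RPKM in replicates 1 and 2 (95.4 ± 0.523 RPKM, SD, n = 2). The gene lies on chromosome V from 20780407 to 20785260 and has 6 annotated transcripts. The row with these values spans 4360 bp, which is the coding span of transcripts a and b in WBcel235. A second row spans 2326 bp, the coding span of transcript c, which begins inside the longer one. That row was at 0.11 and 0.04 RPKM in replicates 1 and 2, both under its floor of 3 reads, which is 0.188 and 0.135 RPKM. The coding sequence of transcript c lies within the longer span, and how reads common to both rows were assigned is not given in the sources used here, so the second row does not measure that transcript. Both spans end 31 bp before their WBcel235 counterparts, so the coordinates of the table belong to another build and are not used further.

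skn-1, nhr-49 and pqm-1 formed a close group. skn-1 encodes the Nrf-like factor of oxidative stress defence, which also specifies endoderm in the embryo. It stood at 60.4 and 59.97 RPKM in replicates 1 and 2 (60.2 ± 0.283 RPKM, SD, n = 2). nhr-49, a nuclear hormone receptor gene of fatty acid metabolism, was at 57.99 and 51.7 RPKM in replicates 1 and 2 (54.8 ± 4.47 RPKM). pqm-1, the gene of a zinc finger protein that binds the DAF-16 associated element, was at 55.9 and 50.3 RPKM (53.1 ± 3.97 RPKM). The replicate ranges of nhr-49 and pqm-1 overlapped, so these genes were not separated in level. skn-1 and nhr-49 did not overlap in range, but their counting intervals did in replicate 1, where the levels differed by a ratio of 1.04.

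atfs-1, the bZIP factor gene of the mitochondrial unfolded protein response, was at 38.9 and 39.9 RPKM in replicates 1 and 2 (39.4 ± 0.735 RPKM, SD, n = 2). hlh-30, the TFEB-like gene of autophagy and lipid breakdown, was at 25.3 and 29.2 RPKM (27.25 ± 2.77 RPKM), with about 521 and 837 reads. Its intervals, 23.2 to 27.6 RPKM in replicate 1 and 27.3 to 31.3 RPKM in replicate 2, overlapped only at their ends. hsf-1, the gene of the canonical heat shock factor, was at 22.1 and 21.7 RPKM (21.9 ± 0.233 RPKM). hlh-30 and hsf-1 were apart in replicate 2, by a ratio of 1.34, but their intervals overlapped in replicate 1.

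The lowest factors were nhr-80 and pha-4. nhr-80, a receptor gene of fatty acid desaturation and of the longevity of worms without a germ line, was at 10.21 and 9.51 RPKM in replicates 1 and 2 (9.86 ± 0.495 RPKM, SD, n = 2). pha-4, the FoxA gene that specifies the pharynx and is needed for longevity under dietary restriction, was at 6.11 and 6.69 RPKM (6.40 ± 0.410 RPKM), from about 98 and 149 reads, and was higher than 50.5% of all genes. Of the 9 pairs of neighbours in the order, 1 pair, nhr-49 and pqm-1, overlapped in replicate range.

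In WBcel235 all 10 are protein-coding genes on 6 chromosomes. skn-1 lies on chromosome IV from 5651039 to 5660384 and hlh-30 on the same chromosome from 4014793 to 4034951, both on the minus strand. hlh-30 has the most transcripts, 13 with 10 different coding sequences. hsf-1 spans 11953507 to 11963085 and nhr-49 spans 9869651 to 9874680 on chromosome I. pqm-1 lies on chromosome II from 11150391 to 11152595, and nhr-80 on chromosome III from 11985 to 14869, near its left end. atfs-1 lies on chromosome V from 14193663 to 14197700. pha-4, from 20753052 to 20760317 on chromosome V, lies 20089 bp from hif-1 on the same strand, the closest pair of the 10, although hif-1 was the second highest and pha-4 the lowest in level.

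Some of the nearest protein-coding genes that do not overlap a factor are given as a description of position, not all of them. mdl-1 lies between R03E9.2, at 4.85 and 3.52 RPKM in replicates 1 and 2, and abts-4, at 8.46 and 7.21 RPKM. arrd-6 adjoins pqm-1 with a gap of 0 bp on the other strand and was at 2.56 and 2.86 RPKM. inx-20, 17 bp from nhr-49 on the same strand, was at 1.66 and 1.47 RPKM. H10E21.1, beside nhr-80, was at 11.8 and 14.3 RPKM, and npr-30, on its other side, was at 1.33 and 0.91 RPKM. dnj-25, beside pha-4, was at 18.25 and 20.2 RPKM, and elp-1, on its other side, was at 5.28 and 4.97 RPKM. skn-1 lies 756 bp from the autophagy gene bec-1, which was at 41.5 and 37.3 RPKM. Other annotated genes overlap 3 factors (skn-1, hlh-30 and pha-4), but none has exons in their coding sequence.

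Within their families the factors held different places. Of 41 listed bHLH genes 38 had a value, and mdl-1 ranked 1, hif-1 ranked 3 and hlh-30 ranked 7 among them. Together these 3 held 41.5% of the RPKM of the family in replicate 1 and 42.6% in replicate 2. The family median was 1.49 RPKM, and 11 of its 38 genes reached a mean of 10 RPKM. The genes nearest to mdl-1 in level were mxl-3, at 147 and 121 RPKM, and hif-1, and nearest to hif-1 were mxl-3 and mxl-1. Nearest to hlh-30 were mml-1, at 28.1 and 24.96 RPKM, and mxl-2, at 29.8 and 33.02 RPKM, which belong to the same Myc and Max-like network. Likeness here is the difference of log2(RPKM + 1) over 2 samples of 1 group, so it compares levels and not patterns.

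Among 26 bZIP genes with a value, skn-1 ranked 5 and atfs-1 ranked 6. The 3 highest were xbp-1, a factor of the endoplasmic reticulum stress response, at 241 ± 3.89 RPKM, atf-5, an ATF4-like gene, at 208 ± 1.45 RPKM and zip-2, a gene of pathogen response, at 201 ± 8.48 RPKM. The family median was 20.8 RPKM, and 20 of the 26 genes reached a mean of 10 RPKM. skn-1 and atfs-1 held 8.58% of its RPKM in replicate 1 and 8.37% in replicate 2. zip-3, known as a repressor of ATFS-1, was nearest to atfs-1 in level, at 35.4 and 41.96 RPKM. The genes nearest to skn-1 were atf-7, at 91.6 and 89.4 RPKM, and atfs-1.

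pha-4 ranked 4 of 15 forkhead genes. Above it stood fkh-9 at 57.9 ± 1.99 RPKM, daf-16, the FOXO factor gene of insulin signalling, at 35.7 ± 0.898 RPKM, and fkh-7 at 14.4 ± 0.198 RPKM. Only these 3 forkhead genes reached a mean of 10 RPKM. fkh-3, at 5.66 and 4.13 RPKM, and fkh-4, at 3.52 and 5.66 RPKM, were nearest to pha-4.

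Among 261 nuclear hormone receptor genes with an nhr name, nhr-49 ranked 4 and nhr-80 ranked 54. Receptor genes with other names, such as daf-12, are not in this list. nhr-68 at 177 ± 7.72 RPKM, nhr-17 at 117 ± 10.99 RPKM and nhr-97 at 114.7 ± 4.73 RPKM were the highest. The median of these nhr genes was 3.31 RPKM. A mean of 10 RPKM was reached by 53 of them, a limit that nhr-80 passed in replicate 1 and missed in replicate 2. Nearest to nhr-49 were nhr-105, at 50.1 and 41.5 RPKM, and nhr-31, at 45.5 and 42.7 RPKM. nhr-41 and nhr-135, at means of 9.62 ± 1.16 and 9.54 ± 0.0636 RPKM, were nearest to nhr-80. hsf-1 exceeded the other HSF gene listed, hsf-2, which was at 0.19 and 0.67 RPKM in replicates 1 and 2.

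**Figure D2:**
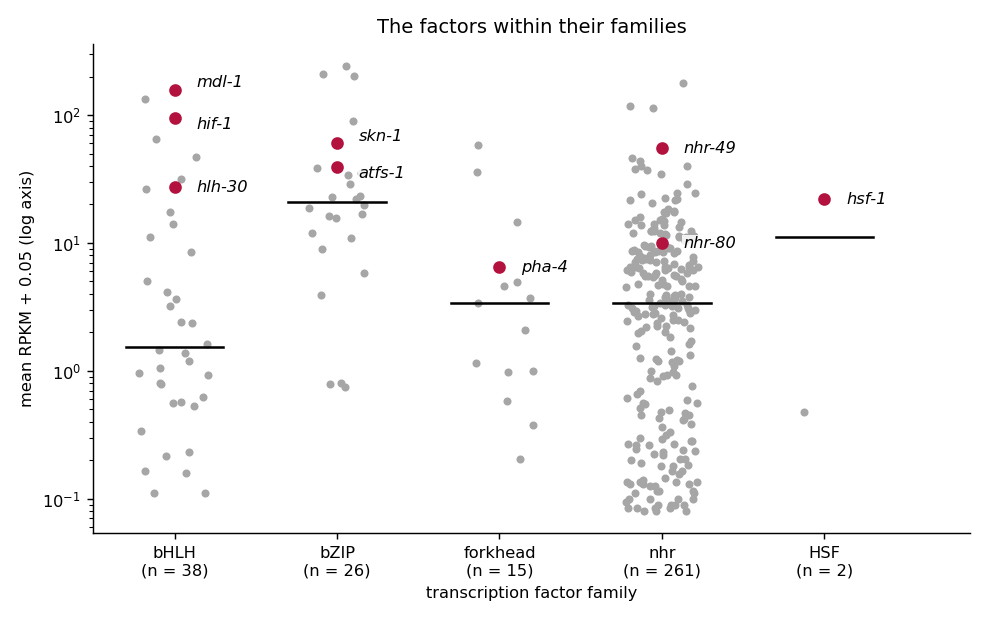
Mean RPKM plus 0.05 (logarithmic axis) of every listed gene with a value in the 5 transcription factor families. The examined factors are in red, other genes in grey, and the median of each list is a line. mdl-1 tops the bHLH genes, skn-1 and atfs-1 rank 5 and 6 of 26 bZIP genes, and nhr-49 and nhr-80 rank 4 and 54 of 261 genes with an nhr name.

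Genes known to bind or regulate the factors were nearly all expressed at a moderate level. Of 27 such genes, all had a mean of at least 1 RPKM, 24 of at least 10 RPKM and 3 of at least 100 RPKM, with a median of 31.4 RPKM. Over all genes 72% reached 1 RPKM, 42% reached 10 RPKM and 7.63% reached 100 RPKM. The 3 highest were ubl-5, mxl-3 and hsb-1.

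MDL-1 binds DNA together with MXL-1, a Max-like protein. mxl-1 was at 67.04 and 62.4 RPKM in replicates 1 and 2, so that mdl-1 stood 2.49 and 2.39 times above the gene of its partner. The parallel pair of the network, the Mondo-like factor gene mml-1 and its Mlx-like partner gene mxl-2, was lower: mdl-1 exceeded mml-1 by 5.93 and 5.98 times and mxl-2 by 5.60 and 4.52 times. For HLH-30 the list holds an antagonist and not a dimer partner, and the gene of that antagonist was above hlh-30. mxl-3, which represses lipase genes that HLH-30 activates in fasting, stood 5.82 and 4.14 times above hlh-30 and was the higher in replicate 1, with intervals apart. xpo-1, the gene of the exportin that removes HLH-30 from the nucleus, was at 59.3 and 54.6 RPKM.

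HIF-1 is hydroxylated by EGL-9 and then marked for degradation through VHL-1, and it acts as a dimer with AHA-1. hif-1 was higher than each of its 5 listed partners and regulators. egl-9, read from its longer coordinate row, was at 14.6 and 15.1 RPKM in replicates 1 and 2, and vhl-1 was at 18.8 and 19.1 RPKM. aha-1 was at 17.7 and 16.9 RPKM, so that hif-1 exceeded its dimer partner by 5.37 and 5.65 times. cysl-1, whose protein binds and inhibits EGL-9, was closest to hif-1 at 81.3 and 77.9 RPKM. rhy-1, which encodes a membrane protein that inhibits HIF-1, was at 31.7 and 24.02 RPKM in replicates 1 and 2, with intervals that do not overlap.

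SKN-1 is kept low by the ubiquitin ligase adaptor WDR-23 and by the kinase GSK-3, and is activated through the kinases SEK-1 and PMK-1. All 4 genes were below skn-1, in a narrow range of means from 24.9 RPKM for pmk-1 to 40.6 RPKM for gsk-3. wdr-23 was at 40.3 and 37.45 RPKM in replicates 1 and 2, so that skn-1 stood 1.497 and 1.60 times above it. sek-1 was at 30.7 and 32.5 RPKM.

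HSF-1 is held by an inhibitory complex of DDL-1, DDL-2 and HSB-1, whose genes differed widely. hsb-1 was at 132 and 131 RPKM in replicates 1 and 2, 5.997 and 6.01 times above hsf-1. ddl-1, at 8.82 and 13.9 RPKM, and ddl-2, at 6.41 and 5.07 RPKM, were both below hsf-1. ddl-1 was the only partner or regulator beyond 1.5-fold between the replicates, but rested on 53 reads in replicate 1 and its intervals overlapped.

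ATFS-1 signalling is linked to the peptide exporter HAF-1, the protease CLPP-1, the homeodomain factor DVE-1 and its ubiquitin-like partner UBL-5. ubl-5 was the highest of all 27 partners and regulators, at 153 and 164 RPKM in replicates 1 and 2. haf-1 was the lowest at 2.66 and 2.95 RPKM, so that atfs-1 stood 14.6 and 13.5 times above it. clpp-1 was at 46.9 ± 2.14 RPKM and dve-1 at 17.4 ± 0.212 RPKM (SD, n = 2 each).

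The partners and regulators listed for NHR-49 and PQM-1 were below them in level, and smk-1, the gene listed for PHA-4, was above it. mdt-15, the Mediator subunit that works with NHR-49, was at 38.7 and 40.6 RPKM in replicates 1 and 2. The partner receptor genes nhr-66 and nhr-13 were at 22.6 ± 0.792 and 6.81 ± 1.32 RPKM. pqm-1 stood 1.59 and 1.38 times above daf-16, whose protein occupies the nucleus in opposition to PQM-1. ceh-60, a homeodomain factor gene that works with pqm-1, was at 11.4 and 12.6 RPKM. smk-1, which is required for longevity through both DAF-16 and PHA-4, was at 33.45 and 33.65 RPKM, 5.47 times above pha-4 in replicate 1 and 5.03 times in replicate 2.

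**Figure D3:**
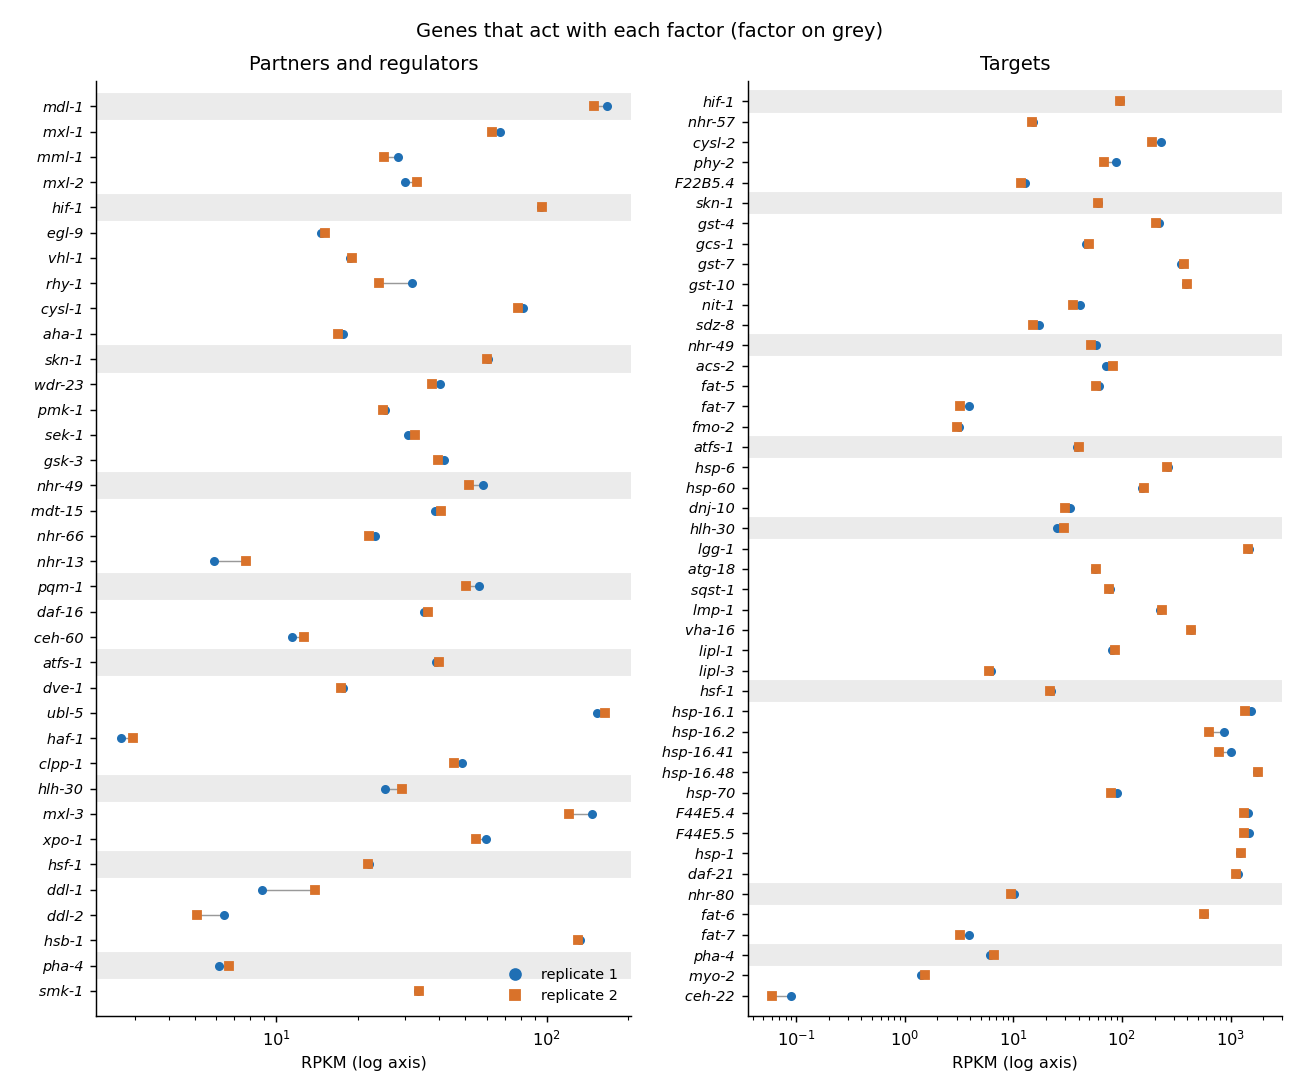
RPKM (logarithmic axis) of each factor, on a grey band, and below it the listed partners and regulators (left) and targets (right), with replicate 1 as circles and replicate 2 as squares. All 9 listed HSF-1 targets lie above hsf-1, while hif-1 lies above its 5 listed partners and regulators and pha-4 above its 2 listed targets.

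Known target genes differed in level by factor. Of 36 listed targets, 35 had a mean of at least 1 RPKM, 31 of at least 10 RPKM and 18 of at least 100 RPKM, with a median of 120 RPKM. Over all genes these limits were reached by 72%, 42% and 7.63%. Many of these genes are also controlled by other factors, so their level is not a readout of the listed factor alone.

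HSF-1 targets were the most abundant. Their median was 1233 RPKM, and all 9 lay above hsf-1. The lowest was the inducible gene hsp-70, at 89.2 and 78.75 RPKM in replicates 1 and 2, and the highest was hsp-16.48, 80.05 times above hsf-1 in replicate 1 and 82.5 times in replicate 2. Intervals were apart in 7 of the 9, all with replicate 1 higher, while hsf-1 itself was at 22.1 and 21.7 RPKM. Among genes within the same range of reads, 40% had intervals apart and 14.9% had them apart with replicate 1 higher. The 7 genes were hsp-16.1, hsp-16.2, hsp-16.41, hsp-70, F44E5.4, F44E5.5 and daf-21 (Hsp90). hsp-16.2 differed most, at 864 and 637 RPKM in replicates 1 and 2. hsp-1, the constitutive Hsp70 gene, was at 1223 and 1243 RPKM. The hsp-16 genes are related to one another, and F44E5.4 and F44E5.5 are near-identical copies. Reads may be divided between such genes, which was not examined, so they are neither independent genes nor certain single values.

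Targets of ATFS-1, the chaperones of mitochondria, lay above or near atfs-1. The mitochondrial Hsp70 gene hsp-6 was at 266 and 259 RPKM in replicates 1 and 2, hsp-60 was at 154 and 159 RPKM, and dnj-10 was at 33.04 and 29.6 RPKM.

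SKN-1 targets were led by glutathione S-transferase genes. gst-10 was at 385 and 394 RPKM in replicates 1 and 2, gst-7 at 351 and 369.85 RPKM and gst-4 at 220 and 207.5 RPKM. The glutathione synthesis gene gcs-1, at 46.7 and 50.1 RPKM, the nitrilase gene nit-1, at 40.7 and 35.2 RPKM, and sdz-8, at 17.3 and 15.3 RPKM, were below skn-1.

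Of 7 HLH-30 targets, 6 were above hlh-30. The Atg8 gene lgg-1 was at 1482 and 1443 RPKM in replicates 1 and 2, and the proton pump gene vha-16 was at 435 and 432 RPKM. The lysosome membrane gene lmp-1 was at 228 ± 6.72 RPKM, the p62 receptor gene sqst-1 at 76.4 ± 0.898 RPKM and the phosphoinositide-binding autophagy gene atg-18 at 56.9 ± 1.11 RPKM. The lysosomal lipase genes parted, with lipl-1 at 80.8 and 87.1 RPKM and lipl-3 at 6.17 and 5.95 RPKM.

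HIF-1 targets spread around hif-1. cysl-2, a hydrogen sulfide and cyanide response gene, was at 227 and 190.4 RPKM in replicates 1 and 2, and phy-2, a collagen prolyl hydroxylase gene, was at 88.02 and 68.7 RPKM. These 2 of the 4 targets had intervals apart. The hypoxia-induced genes nhr-57 and F22B5.4 were lower, at 15.0 ± 0.120 and 12.3 ± 0.693 RPKM, and their intervals overlapped.

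The fatty acid genes under NHR-49 and NHR-80 did not share a level. fat-6, a delta-9 desaturase gene, was at 572 and 566 RPKM in replicates 1 and 2, while its close relative fat-7 was at 3.92 and 3.22 RPKM. The division of reads between fat-6 and fat-7 was not examined, so the value of fat-7 is uncertain. fat-5, the palmitoyl-CoA desaturase gene, was at 61.9 and 57.1 RPKM. acs-2, an acyl-CoA synthetase gene of beta-oxidation, was at 70.7 and 83.03 RPKM, with intervals apart and replicate 2 higher. fmo-2, a flavin monooxygenase gene that NHR-49 and HIF-1 can induce, was at 3.08 ± 0.113 RPKM (SD, n = 2).

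Both listed PHA-4 targets were below pha-4. The pharyngeal myosin gene myo-2 was at 1.41 and 1.53 RPKM in replicates 1 and 2. ceh-22, a homeodomain factor gene of pharyngeal muscle, was at 0.09 and 0.06 RPKM, about 1 read in each, which is under the floor of 3 reads. These targets do not stand for pharyngeal genes as a whole. The 6 pharyngeal muscle markers, ceh-22 among them, summed to 57.9 and 48.2 RPKM in replicates 1 and 2. The highest of these markers had a mean above that of pha-4. PHA-4 is also made in the intestine, and which tissues supplied the pha-4 reads was not tested.

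The replicates, the only repeat measurement of the design, differed little in the 10 factors. Replicate 1 was higher in 6 of the 10, beside 55.5% of all genes with a mean of at least 1 RPKM, and replicate 2 in 4. The median log2 ratio of replicate 2 to replicate 1 was -0.02, as it was over those genes. None of the 10 lay beyond 1.5-fold, beside 3.58% of them. The ratios ran from -0.16 for nhr-49 to 0.20 for hlh-30 on the log2(RPKM + 1) scale. With no test between single libraries, each ratio was set beside genes within 20% of the same level. Larger differences were seen in 14.1% of such genes for mdl-1, 19.6% for hlh-30, 21.9% for nhr-49 and 25.9% for pqm-1. For skn-1, hif-1 and hsf-1 the share was 94.6%, 91.2% and 89.5%.

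Intervals of the replicates were apart for 1 of the 10 factors, mdl-1, with replicate 1 higher. Of genes within the range of reads of the 10, 7.79% had intervals apart and 5.45% had them apart in that direction, so this count was near the background. After scaling both replicates to a median log2 ratio of 0, the mdl-1 intervals overlapped and those of hlh-30 did not. Among the 27 partners and regulators 3 had intervals apart (mxl-3, xpo-1 and rhy-1, with replicate 1 higher), beside 6.92% of genes in their range of reads, and among the 36 targets 10 had, beside 7.47%. The range of the targets, 2 to 67794 reads, holds 13535 of 13560 genes, so 7.47% is not matched to the reads of the targets. Of these 10 targets, 7 were HSF-1 targets, in whose range of reads 40% of genes had intervals apart. The others were cysl-2, phy-2 and acs-2.

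**Figure D4:**
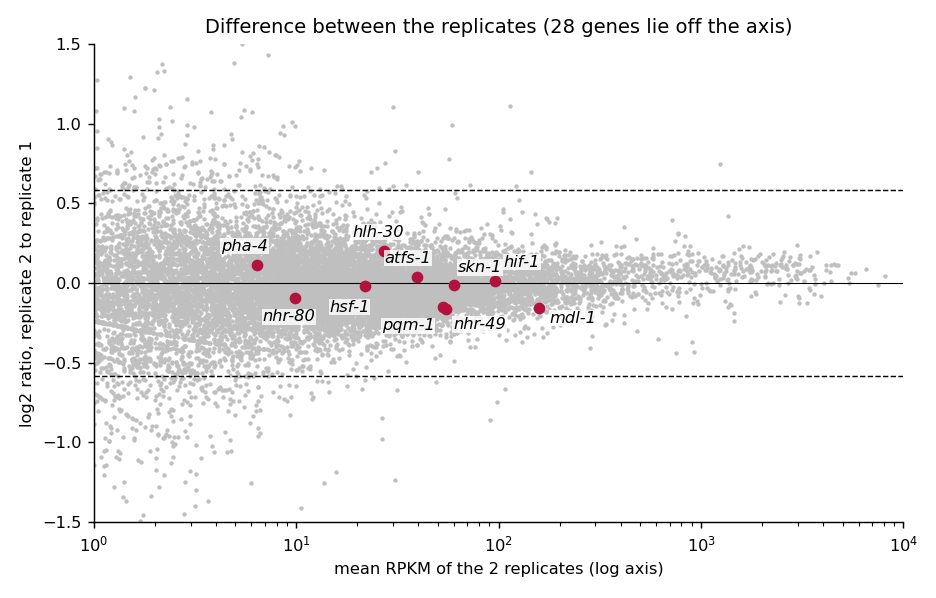
Log2 ratio of replicate 2 to replicate 1 against mean RPKM (logarithmic axis) for genes with a mean of at least 1 RPKM in grey and the 10 factors in red, with dashed lines at 1.5-fold and 28 genes off the axis. All 10 factors lie between -0.16 and 0.20, inside the dashed lines.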

How the data were processed

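Total RNA from 2 samples was made into TruSeq libraries, per the labels' protocols. CASAVA 1.8.2 is named in the submitters' processing notes. The sources used here do not give the aligner, counting method, annotation or build. Values are RPKM as deposited by the authors in 1 table, per the file headers, so no count model was used. Commas that separate digits were removed. Of 19990 rows, 104 with coordinates and 12 with a shared name were left out of the whole-table figures, which leaves 19874 genes. hif-1 and egl-9 were read from their longer coordinate rows.

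Positions and coding lengths came from WBcel235 (Ensembl release 115). Depth was the value at which RPKM times coding length was most often within 0.1 read of a whole number. This held for 87.9% of 4181 values in replicate 1 and 88.6% of 3223 in replicate 2. Chance gives 20% at a fixed depth, whereas the depth here was chosen for the highest share. For genes with several transcripts the union of coding sequences did so most often (73.5% and 75.04%) and was used. Intervals are exact Poisson at a level of 95%.

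Both samples form 1 group, so there was no comparison between groups and no p-value. Replicates were compared on log2(RPKM + 1), which understates differences of low genes, with a limit of 1.5-fold. The members and gene lists were chosen with earlier results of these data known. Named genes were the members and every listed partner, regulator and target. From the families, the 3 highest and the 2 genes nearest to each member were also named. The flanking genes named are a selection of those nearest by position. Alternatives were other scalings, pseudocounts, limits, lengths and confidence levels, and each replicate alone. Scripts were tested on simulated data. The work used matplotlib 3.10.9, scipy 1.17.1, pandas 2.3.3, numpy 2.4.6 and Python 3.11.15.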

Additional observations from a re-analysis of the deposited data

How the results depend on the processing

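No paired analysis was possible because both samples belong to 1 group. The median of the 10 factors was 46.2 RPKM and ran from 45.1 to 47.4 RPKM with either replicate left out. It was 43.9 when each replicate was rescaled to the same sum, as in TPM, and 39.4 RPKM without hif-1, an alternative added after seeing the data. The count of factors with intervals apart was 1 in the report. It was 3 with the length of the union of exons (mdl-1, nhr-49 and hlh-30), which assumes more reads per gene. For genes with several transcripts, that length gave whole reads for only 26.4% and 29.8% of values in replicates 1 and 2. The union of coding sequences did so for 73.5% and 75.04%, so the count of 3 rests on the poorer length. At a confidence level of 99%, whose intervals are wider, the count was 0. The count at a mean of at least 10 RPKM was 8 of the 10 factors. It stayed at 8 under each scaling and without replicate 1, and was 9 without replicate 2. Leaving out hif-1, which itself reached the limit, gave 7. At other limits, 10 factors reached 5 RPKM and 8 reached 20 RPKM. The count beyond 1.5-fold was 0 under each pseudocount, scaling and limit tried. Over all genes with a mean of at least 5 RPKM, 1.26% lay beyond 1.5-fold. The log2 ratios of hif-1, hsf-1 and skn-1, all near 0, changed sign with the scaling, and those of the other 7 factors kept it. Depth limits pha-4 most, with about 98 reads in replicate 1.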
